A study of Mus musculus with 2 samples.

Results

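The TRIM family was described in 2 libraries of polyadenylated RNA from mouse bone marrow-derived macrophages, the phagocytes that grow from marrow cells in culture. Members were taken by name alone, as every row of the deposited table whose symbol is Trim followed by digits, with an optional letter and digits after it. This gave 52 of the 16463 genes in the table, and the rule itself uses no measured value. The row Trim30e-ps1, a pseudogene with 0 counts in WT and 1 in TKO, misses this pattern and was left out. Both mouse lines are labelled C57BL/6J and both carry Lyz2-Cre, a recombinase driven by the lysozyme M locus that acts in myeloid cells. WT, the control, is labelled with Lyz2-Cre only, and TKO with mir-106a-363-/-, mir-106b-25-/- and mir-17-92flox/flox in addition. By these labels the first pair of microRNA clusters is lost in every cell of TKO and the third only where Cre acts. Marrow cells were cultured over 5 days in medium with 10% serum and with 10% conditioned medium of L929 cells, the source of the macrophage growth factor, and were not stimulated. Neither the age of the mice nor the number pooled is given in the sources used here.

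TRIM proteins share an amino-terminal RING finger, B-box and coiled coil, and most are ubiquitin ligases whose carboxy-terminal domain chooses the target. Members that end in a PRY-SPRY domain include sensors and restriction factors of viruses and regulators of the RIG-I, STING and NF-kB pathways, and several of them are switched on by interferon in macrophages. Other members act elsewhere, such as the chromatin corepressors with a PHD finger and bromodomain and the NHL repeat proteins best known from neurons and muscle.

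With 1 library per genotype there is no replicate check and no test of any difference, and intervals cover counting error only. The libraries held 10877897 counts in WT and 10656431 in TKO after rounding, of which the TRIM members took 20096 and 21871. Mir17hg, the host transcript of mir-17-92, was counted 8 times in WT and 42 times in TKO. A count over the whole host transcript does not show whether the microRNA segment was deleted, so it checks no label. All 10 listed macrophage markers were expressed and none differed by 2-fold, with sums of 11368 CPM (counts scaled to the library total) in WT and 11473 in TKO. Markers of other cells differed. Of the 5 dendritic markers with enough counts 4 were called higher in TKO by the rule given below, against 2.43% of all genes. The sum over the 9 listed went from 53.0 to 128 CPM. Most of that sum came from Itgax (342 counts in WT and 843 in TKO) and Cd24a (177 and 414). Flt3 had 10 and 27, Dpp4 8 and 22, Ccr7 5 and 14 and Clec9a 1 and 4. Xcr1 had 25 and 34, Siglech 4 and 6 and Zbtb46 5 and 3. Of the 11 fibroblast markers with enough counts 8 were called lower in TKO, against 2.30% of all genes. The sum over the 12 listed went from 595 to 169 CPM. Monocyte markers summed to 170 and 168 CPM, neutrophil markers to 7.54 and 8.16, B cell markers to 4.69 and 3.10, and T and NK cell markers to 7.91 and 4.32. Of the defining B cell markers, Ms4a1 was at 0 in WT and Pax5 at 0 in TKO. The part of these cells in the TRIM ratios was not tested, and in bulk RNA fewer cells of a type and less RNA per cell cannot be told apart.

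Most TRIM genes were at like levels in both libraries, and those that were clearly higher in TKO lay together on chromosome 7. Of the 52 members, 39 had at least 20 counts in 1 library. A gene was called higher or lower when its ratio of scaled counts was at least 2-fold, the 95% interval excluded no change and it had those 20 counts. Of the 39 members, 4 were called higher in TKO, which were Trim30b, Trim6, Trim30d and Trim34a, while 2.43% of all 11525 genes past the same minimum were called higher. None was called lower, where 2.30% of all genes were. The median log2 ratio of TKO over WT was 0.05 over the 39 members and 0.00 over all genes. It lay within 0.5 of no change for 27 members, or 69.2%, against 83.7% of all genes. In the authors' deposited table, which gives an FDR from a test that is not named in the sources used here, the same 4 members had a log2 ratio of at least 1 at an FDR of 0.05 or less, and 1.82% of the table's genes did. That threshold was chosen here.

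Levels were compared between genes in FPKM, the authors' unit scaled for gene length and depth. Trim25 was the most abundant member in WT, at 61.9 FPKM, followed by Trim28 at 47.1, Trim8 at 37.2, Trim30a at 33.4 and Trim14 at 27.4. The same 5 genes led in TKO, where Trim30a came first at 59.0 FPKM and Trim25 next at 57.4, a gap that 1 library each cannot rank. Members of the chromosome 7 group made up 19.8% of the summed FPKM of the family in WT and 31.1% in TKO. At 1 FPKM or more stood 35 members in WT and 36 in TKO.

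**Figure D1:**
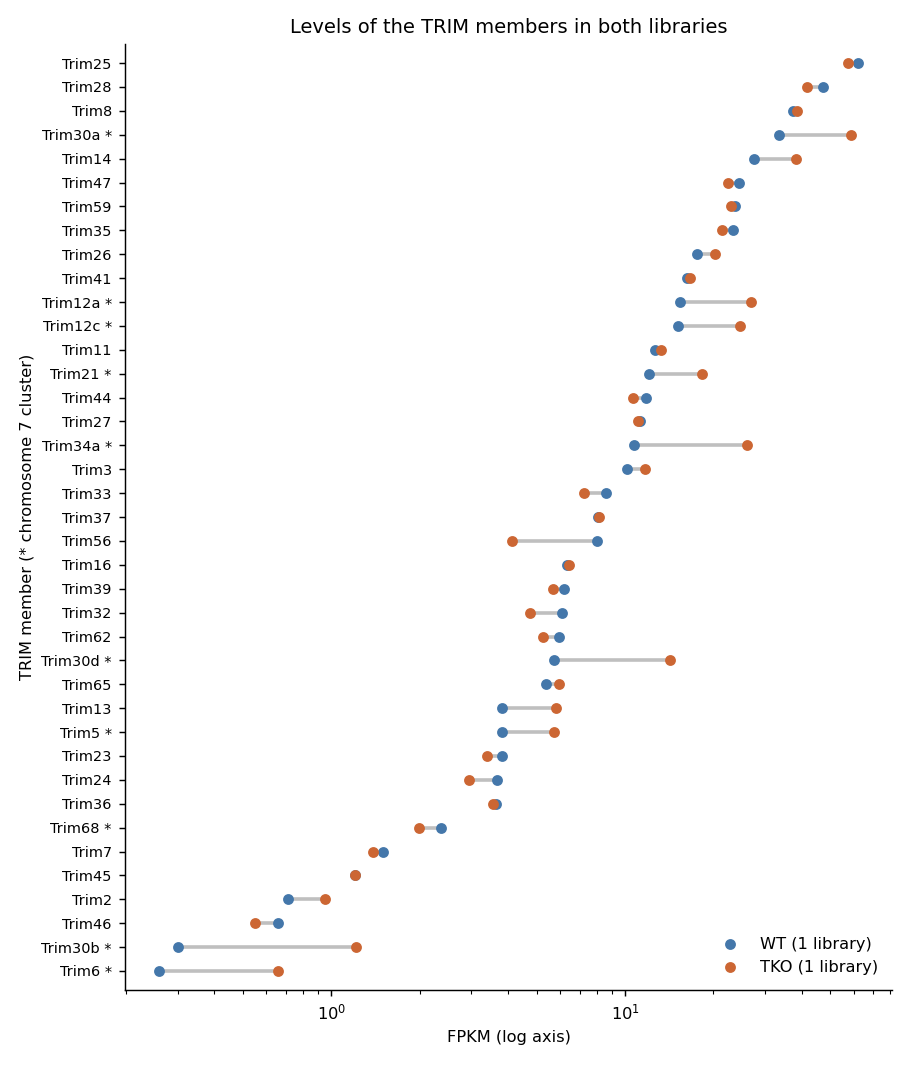
Level of each of the 39 TRIM members with at least 20 counts in 1 library, in FPKM on a log axis, with 1 point for each library and a grey line joining them; members are ordered by WT and an asterisk marks the chromosome 7 group. The widest lines belong to the asterisked genes Trim30b, Trim6, Trim30d and Trim34a, which were higher in TKO, followed by Trim56, which was lower.

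The chromosome 7 group holds the mouse relatives of the retrovirus restriction factor TRIM5 together with Trim21 and Trim68. All were classed here as PRY-SPRY from general knowledge, and whether each copy keeps that domain was not checked. Of the 11 members listed for the group, 10 passed the count minimum, 9 of these had an interval wholly above no change, as did 21.8% of all genes, and 4 were called higher. The median log2 ratio over the 10 was 0.85, and an order-statistic interval over members ran from 0.61 to 1.36. That interval describes the spread among linked genes, some of them copies, which are not replicates of a genotype. Outside the group none of 29 members was called, and their median was -0.03. Among all genes 2.43% were called higher and 2.30% lower. At a threshold of 1.5-fold, 9 of the 10 were higher, and 10 of the 39 members as a whole, against 5.13% of all genes. Trim13 was the member outside the group, and Trim56 the only member lower at 1.5-fold, where 5.52% of all genes were.

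Trim30a, Trim30b and Trim30d are neighbouring copies, of which Trim30a restrains NF-kB signalling by promoting loss of the adaptors TAB2 and TAB3. Trim30a (Entrez 20128, chromosome 7, 104409025 to 104465193, minus strand, GRCm38) was counted 1378 times in WT and 2390 times in TKO, a 1.82-fold difference (95% interval 1.70 to 1.94) that did not reach the 2-fold threshold. Trim30d (Entrez 209387, chromosome 7, 104470014 to 104507849, minus strand) had 223 and 542 counts and was 2.54-fold higher in TKO (2.17 to 2.99). Trim30b (Entrez 244183, chromosome 7, 104355382 to 104369884, minus strand) had only 9 and 36 counts and was 4.19-fold higher (1.98 to 9.88). This sparse copy had the highest ratio of the 39 members past the minimum, and its interval was wide.

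Trim34a and Trim6 lie side by side, and Trim6 is known to build free ubiquitin chains that activate the kinase IKK epsilon. Trim34a (Entrez 94094, chromosome 7, 104244457 to 104262234, plus strand) was counted 304 times in WT and 723 times in TKO, 2.49-fold more (2.17 to 2.86). Trim6 (Entrez 94088, chromosome 7, 104218793 to 104235152, plus strand) had 11 and 27 counts and was 2.57-fold higher (1.23 to 5.74). Its level was low in both libraries, at 0.26 and 0.66 FPKM. Trim34b, the second copy of Trim34, had 0 and 6 counts and stayed under the minimum.

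The other genes of the group were higher by less than 2-fold. Trim12a was counted 259 times in WT and 441 times in TKO, 1.78-fold more (1.52 to 2.09), and its copy Trim12c had 618 and 989, 1.67-fold more (1.51 to 1.85). Trim5 was counted 104 and 152 times, for a log2 ratio of 0.61 (0.24 to 0.99). Trim21, the cytosolic antibody receptor that marks antibody-coated virus for destruction, was counted 365 and 540 times, for a log2 ratio of 0.63 (0.44 to 0.83). Trim68 alone went the other way, with 61 and 51 counts and a log2 ratio of -0.19 whose interval of -0.76 to 0.37 includes 0.

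**Figure D2:**
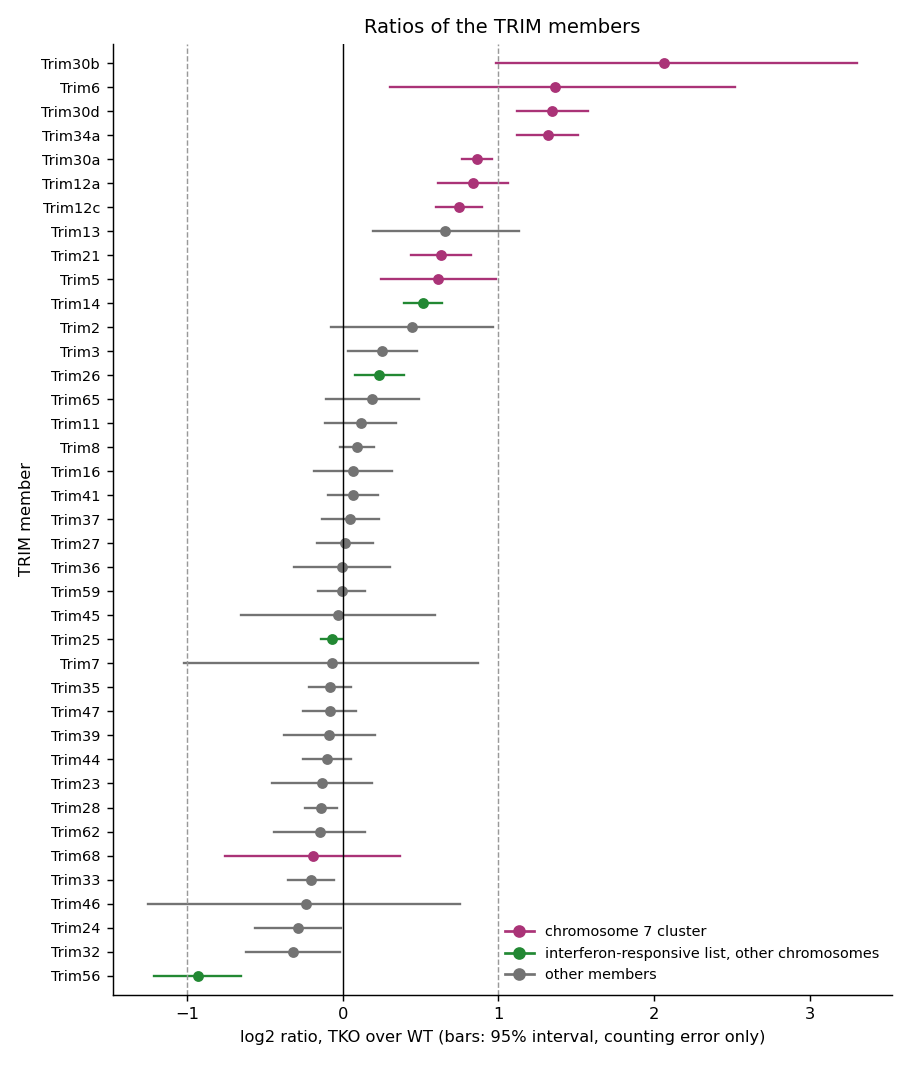
Log2 ratio of TKO over WT for the 39 members past the count minimum, with points for the ratio and bars for the 95% interval of counting error, and dashed lines at 2-fold. The chromosome 7 genes fill 9 of the 10 highest places with Trim13 among them, while Trim68 lies below 0 and Trim56 is the lowest at -0.93.

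Copies of a gene can exchange reads, so the division of counts among them is uncertain. Estimated counts were not whole in at least 1 library for 16 of the 39 members, as happens when reads are shared between genes. Of the 50-base stretches in the annotated transcripts of Trim34b, 56.8% also occur in Trim34a, and 39.8% of those of Trim34a occur in Trim34b. Trim5 and Trim12c shared 23.5% and 24.2% of theirs with each other, whereas Trim30d shared 6.39% with Trim30a, and Trim30b and Trim6 shared under 1%, at 0.406% and 0.102%. Summed over copies, the Trim30 group, Trim30e-ps1 included, was counted 1610 times in WT and 2969 times in TKO, 1.93-fold more (1.82 to 2.05), so the sum did not reach 2-fold although Trim30b and Trim30d each did. Trim34a and Trim34b together had 304 and 729 counts, 2.51-fold more (2.19 to 2.88), and Trim12a with Trim12c had 877 and 1430, 1.71-fold more (1.57 to 1.86). With copies summed, 2 of 36 members were called, Trim6 and the Trim34 sum.

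The start regions of these genes were searched for the core of the interferon-stimulated response element, a DNA sequence bound by IRF factors. The core was taken as the letters GAAA, any 2 bases and GAAA again, on either strand, in windows from 250 bases before to 50 after each RefSeq gene start (GRCm38.p6). A window was at hand for 30 of the 39 members. The core occurred in 7 of the 10 chromosome 7 genes and in 2 of the 20 others, Trim26 and Trim2, which is 30.0% of the 30 members. It occurred in 3.94% of the 9257 genes past the count minimum with a window and in 3.44% of all 32851 windows. Among the 202 genes with a window that were called higher, 24.3% had it. A match is a description, not a site. The 30 bases around 1 match are shown for 8 of the 9 members with the core, all but Trim2, written in the direction of the gene with the core in capitals. Trim30a and Trim30d share them, as do Trim5, Trim12a and Trim12c almost letter for letter. The stretches of Trim34a, Trim21 and Trim26 differ from these and from each other.
Trim30a, chr7:104465210-104465239, minus strand, 36 bases before the start: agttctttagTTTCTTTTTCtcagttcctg
Trim30d, chr7:104507871-104507900, minus strand, 41 bases before the start: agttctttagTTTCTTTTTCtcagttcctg
Trim34a, chr7:104244457-104244486, plus strand, 10 bases after the start: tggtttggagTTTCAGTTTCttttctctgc
Trim12a, chr7:104315466-104315495, minus strand, 10 bases after the start: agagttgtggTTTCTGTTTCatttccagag
Trim12c, chr7:104353359-104353388, minus strand, 29 bases before the start: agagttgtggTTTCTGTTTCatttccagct
Trim5, chr7:104288136-104288165, minus strand, 49 bases before the start: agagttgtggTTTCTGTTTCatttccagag
Trim21, chr7:102565450-102565479, minus strand, 13 bases after the start: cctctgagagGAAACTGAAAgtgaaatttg
Trim26, chr17:36836976-36837005, plus strand, 160 bases before the start: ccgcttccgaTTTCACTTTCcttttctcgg

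The stretches of Trim30a and Trim30d are identical, as are those of Trim5 and Trim12a, so these copies are not separate instances. Trim21 and Trim26 each held a second, overlapping match, and Trim30a held a second one in the window of its other annotated start. The 9 members with the core had a median log2 ratio of 0.74, from 0.23 for Trim26 to 1.35 for Trim30d, and the 21 without it had -0.09, from -0.93 to 2.07. Most of the 9 are chromosome 7 genes. Outside that group the medians were 0.34 for the 2 members with the core and -0.09 for the 18 without. Over all genes the medians were 0.13 for the 365 with the core and 0.00 for the 8892 without. Trim30b and Trim6, called higher, had no match in their windows, which says only that these letters are not there. A gamma-activated site, TTCNNNGAA, occurred in none of the 10 chromosome 7 windows, in 2 of the other 20, Trim45 and Trim46, and in 8.19% of genes with a window.

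**Figure D3:**
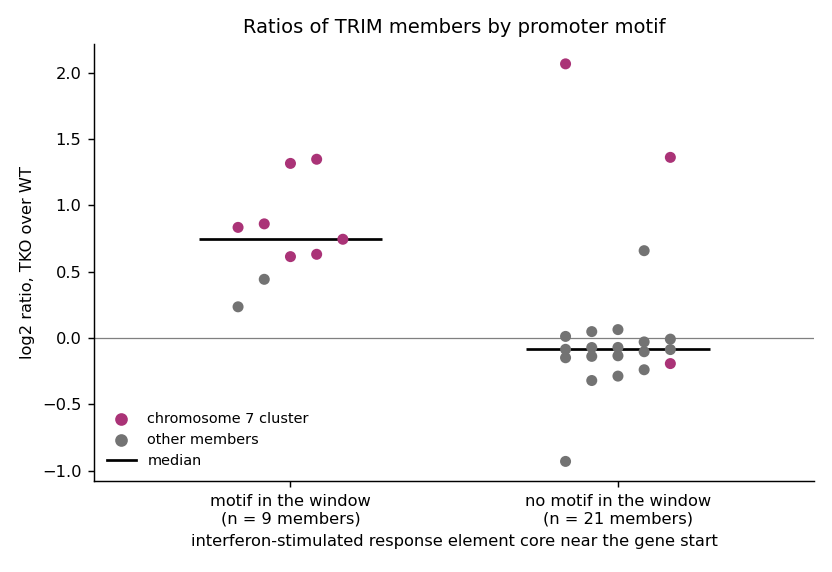
Log2 ratio of TKO over WT for the 30 members past the count minimum with a RefSeq start window, split by whether the response element core occurs in it; each point is a gene and the line is the median. The 9 genes with the core lie between 0.23 and 1.35, and the 21 without it lie within 0.5 of 0 apart from Trim30b, Trim6, Trim13 and Trim56.

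The cluster was then set beside its neighbours on the chromosome. From Trim6 to Trim30d 9 members lie within 289 kb, while 1531.5 kb lie between Trim68 and Trim6. Of the 4 other genes with a row within the whole group, Olfr613, an olfactory receptor gene, alone passed the count minimum and had a log2 ratio of 0.20. Within 2 Mb on either side of the group, 44 genes passed the minimum, Trim3 included, with a median log2 ratio of 0.09. Of these, 26 had a ratio above 0, 3 were called higher, against 2.43% of all genes, and 1 lower, against 2.30%. The higher ones were Il18bp, which neutralises interleukin-18, Gm8979 and Gvin1, a very large interferon-inducible GTPase gene that was counted 1617 times in WT and 3378 times in TKO (log2 ratio 1.13). Arhgef17 was the lower gene, at a log2 ratio of -1.70. These neighbours are named because of their calls. Gm4070 and Gm17757, which come before Gm8979 on the chromosome, were not called, at 0.70 (0.61 to 0.79) and 0.94 (0.62 to 1.27).

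**Figure D4:**
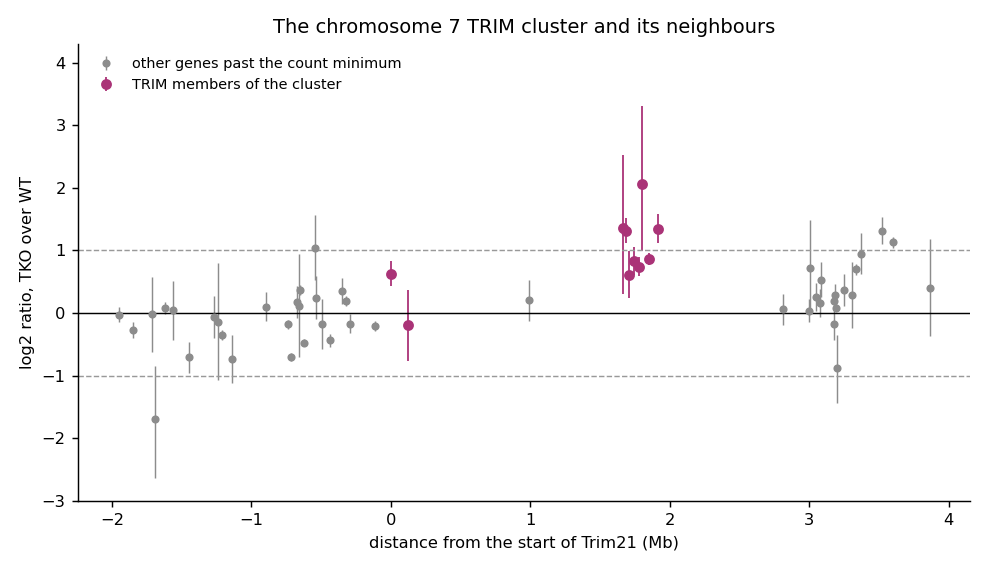
Log2 ratio of TKO over WT against distance from the start of Trim21 in Mb, for chromosome 7 TRIM members and for other genes past the count minimum within 2 Mb on either side; bars are 95% intervals of counting error. The 8 members between Trim6 and Trim30d all lie above 0.6, and most neighbours lie between -0.5 and 0.5.

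Interferon-responsive members on other chromosomes differed in direction among themselves. The list of TRIM genes known to respond to interferon had 15 symbols, of which Trim30c and Trim38 were not analysed here and Trim34b was under the minimum. Of the 12 left, 3 were called higher, against 2.43% of all genes, and none lower, against 2.30%. A ratio above no change was seen for 10 of the 12 and for 5833 of all 11525 genes, and the median log2 ratio of the 12 was 0.69. All but 4 of the 12 are chromosome 7 genes already given above. None of the 4 outside chromosome 7 was called, and their median was 0.08. Trim14, an adaptor at mitochondria that lacks a RING finger, was counted 961 times in WT and 1312 times in TKO, a log2 ratio of 0.51 (0.39 to 0.64). Trim26, a PRY-SPRY ligase encoded in the MHC region of chromosome 17 (36837134 to 36859398), was counted 618 and 695 times, for a log2 ratio of 0.23 (0.08 to 0.39).

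Trim25 and Trim56 pointed down. Trim25 (chromosome 11, 88999376 to 89020293), the ligase that modifies the RNA sensor RIG-I, was counted 3805 times in WT and 3461 times in TKO, a log2 ratio of -0.07 (-0.14 to -0.0044), which was 0.13 with the trend of ratios with gene length removed. Trim56 (Entrez 384309, chromosome 5, 137105644 to 137116209), a ligase that promotes STING and cGAS signalling, had 321 counts and 161, a log2 ratio of -0.93 (-1.21 to -0.65). It was 1.91-fold lower in TKO and so just outside the threshold, the lowest ratio of any member past the minimum.

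PRY-SPRY genes outside chromosome 7 were close to no change. None of the 13 past the minimum was called, where 2.43% of all genes were called higher and 2.30% lower. Their median log2 ratio was 0.01, and 12 lay within 0.5 of no change, against 83.7% of all genes. Trim35, with 939 and 847 counts, had -0.08 (-0.22 to 0.05). Trim41, with 624 and 623, had 0.06 (-0.10 to 0.23), and Trim27, with 520 and 501, had 0.01 (-0.17 to 0.19). Trim11 (313 and 324 counts), Trim16 (270 and 270) and Trim65 (179 and 195), a ligase acting on the RNA sensor MDA5, had 0.12 (-0.11 to 0.34), 0.07 (-0.18 to 0.31) and 0.19 (-0.11 to 0.49). Trim39 (209 and 188 counts), in the MHC region like Trim26, had -0.09 (-0.38 to 0.20). Trim62 (210 and 181) had -0.15 (-0.44 to 0.14), and Trim7, with 22 and 20 counts, had -0.07 (-1.02 to 0.87). All these intervals include 0. Trim47 had 584 and 526 counts and -0.09 (-0.26 to 0.09), and it overlaps Trim65 on the same strand of chromosome 11, so the division of reads between them is uncertain.

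None of the 3 genes of the chromatin group past the minimum was called, where 2.43% of all genes were called higher and 2.30% lower. Trim28, the corepressor recruited by KRAB zinc finger proteins, was counted 1676 times in WT and 1455 times in TKO, a log2 ratio of -0.14 (-0.24 to -0.04). Trim33, which acts in TGF-beta signalling through SMAD4, had 839 and 695 counts (-0.21, -0.35 to -0.06), and Trim24, a cofactor of nuclear receptors, 249 and 195 (-0.29, -0.56 to -0.01). All 3 intervals lay below 0, as did those of 22.7% of all genes. With the length trend removed the values were -0.12, 0.16 and -0.05, so Trim33 changed direction.

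Members with NHL repeats differed among themselves. Trim32, a ligase mutated in a limb-girdle muscular dystrophy, was counted 213 and 163 times, for a log2 ratio of -0.32 (-0.62 to -0.02). Trim3 had 318 and 362 counts (0.25, 0.03 to 0.47), and Trim2, a ligase of neurofilament in neurons, had 57 and 74 (0.44) with an interval of -0.08 to 0.97. None was called. Of the membrane-anchored pair, Trim13, a ligase of the endoplasmic reticulum, had 65 and 98 counts and was 1.58-fold higher (1.14 to 2.19), while Trim59 had 758 and 720 and a log2 ratio of -0.01 (-0.16 to 0.14).

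The remaining classes held few members, and apart from Trim56 all of these lay within 0.3 of no change. Trim37, with a MATH domain and a role at centrosomes, had 500 and 494 counts and a log2 ratio of 0.05 (-0.13 to 0.23). Trim23, which carries an ARF GTPase domain, had 178 and 155 counts (-0.13, -0.45 to 0.18). Trim8, a regulator of cytokine signalling, had 1326 and 1349 (0.09, -0.02 to 0.20). Trim44, which lacks a RING finger, had 724 and 644 (-0.10, -0.26 to 0.05) and Trim45 had 47 and 44 (-0.03, -0.66 to 0.59). Of the microtubule-binding class with a COS box, Trim36 had 182 and 173 counts (-0.01, -0.32 to 0.30), and Trim46, which organises axonal microtubules, had 21 and 17 (-0.24, -1.25 to 0.75).

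The other 13 members had at most 14 counts in either library, and no ratio is read from them. Trim43b had 10 and 14 counts and its near copy Trim43c 6 and 0. Trim9 had 5 and 4, Trim52 4 and 4, and Trim17 4 and 2. Trim34b is given above. Trim15, Trim29, Trim43a, Trim63, Trim66, Trim67 and Trim69 had 3 counts or fewer in both.

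The microRNAs of the clusters targeted in TKO fall into 4 seed families, and their matches among the TRIM genes were counted. No microRNA was measured, so their loss in these cells rests on the labels. The mature sequence of a founding member of each family is shown from RefSeq (GRCm38.p6), with the seed, bases 2 to 8, in capitals.
mmu-miR-17-5p: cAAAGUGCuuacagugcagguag
mmu-miR-18a-5p: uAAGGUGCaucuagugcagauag
mmu-miR-19a-3p: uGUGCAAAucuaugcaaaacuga
mmu-miR-92a-3p: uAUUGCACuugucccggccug

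A match to bases 2 to 8 of any of the 4 families occurred in the longest annotated 3' UTR of 13 of the 39 members, or 33.3%, and in 36.0% of 10773 genes. The 13 had a median log2 ratio of -0.01 and the other 26 one of 0.06. Over all genes these medians were -0.06 and 0.04. The miR-17 family had matches in 5 members, Trim3, Trim6, Trim8, Trim36 and Trim37, with a median of 0.09. The miR-25/92 family had them in Trim23, Trim25, Trim30b, Trim35 and Trim36 (-0.07), the miR-19 family in Trim7, Trim23, Trim33 and Trim39 (-0.11), and the miR-18 family in Trim2 and Trim8. Of the 4 called members, Trim6 and Trim30b had a match each, here with the match in capitals.
Trim6, miR-17 family: tgttacattcaGCACTTTatgtttgctga
Trim30b, miR-25/92 family: ctctgtttacaGTGCAATaataattcatc

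Trim6 and Trim30b were also the sparsest of the called genes, and Trim8, with matches to the miR-17 and miR-18 families and with 1326 and 1349 counts, had a log2 ratio of 0.09.

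Genes that work with TRIM proteins were read from a list of 37, of which 33 passed the minimum. Of these, 6 were called higher, against 2.43% of all genes, and none lower, against 2.30%, with a median log2 ratio of 0.07. The RNA sensor genes Ddx58, which encodes RIG-I, and Ifih1, which encodes MDA5, had 957 and 2225 counts and 595 and 1337 (log2 ratios 1.28 and 1.23). Irf7, a transcription factor of the interferon response, had 557 and 2556 counts (2.26). The ubiquitin-like modifier gene Isg15 had 198 and 773 (2.03), its conjugating enzyme Ube2l6 535 and 1419 (1.47) and its protease Usp18 159 and 660 (2.12). Of the adaptors and kinases downstream none was called. Mavs was at -0.24, Tbk1 at 0.02, Traf6 at -0.32, Traf3 at -0.20, Ikbkg at -0.25, Map3k7 at -0.09 and Tab3 at -0.37. Ikbke was at 0.35 (0.16 to 0.54) and Tmem173 at 0.21 (0.07 to 0.35). Irf3, at 0.36 (0.16 to 0.55), and Uba7, at 0.83 (0.69 to 0.96), were not called either. Tab2, the adaptor removed by Trim30a, was at -0.22, and Ube2l3, the most abundant of the list in WT at 131 FPKM, at -0.02.

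TRIM proteins that carry other names were mixed. Pml, of the nuclear bodies, had 874 and 1191 counts (0.51, 0.38 to 0.64), Mid1, a microtubule-bound ligase, 134 and 234 (0.87, 0.56 to 1.19) and Mefv, which encodes pyrin, 55 and 33 (-0.67, -1.34 to -0.02). None was called. Irf9, a transcription factor of interferon signalling, was counted 859 times in WT and 1420 times in TKO, a log2 ratio of 0.79, and was not called. Families of interferon-induced effectors, chosen after these values were known, had larger ratios. All 4 Ifit genes were called higher with a median of 2.65, and 6 of 7 guanylate-binding protein genes with a median of 2.01. Among all genes 2.43% were called higher and 2.30% lower. Of 60 Rnf genes, another family of RING finger ligases, none was called and the median was -0.01, with 90.0% within 0.5 of no change, where 89.7% of the 29 TRIM members outside the chromosome 7 group were. These differences between families had no test, since each genotype had 1 library.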

How the data were processed

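Messenger RNA of 1 WT and 1 TKO library was measured. The tools named, with no role, are HISAT2 2.0.4, Bowtie2 2.2.5 and RSEM 1.2.12, and the build is mm10, per the submitters' processing notes. The annotation and any filters are not stated there. The deposited expected counts estimate how many reads belong to each gene, and the deposited FPKM values were computed by the authors and list genes at 0 counts as 0.01. The authors' log2 ratio is of FPKM, their p-value comes from an unnamed test, and their FDR is treated as a score because some values exceed 1. The deposited table also gives gene length.

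Expected counts were rounded and scaled by TMM (edgeR 4.0.16, R 4.3.3; factors 1.01 for WT and 0.988 for TKO). Log2 ratios were computed without a pseudocount and with an exact conditional binomial (Clopper-Pearson) 95% interval. A count of 0 was set to 3, and genes with at most 3 counts in both libraries got no ratio. No test was run. Simulated data with known changes were used to test the size rule. Positions came from GENCODE M21 (GRCm38, the assembly behind mm10) by Entrez identifier, where all 52 members matched, sequences from RefSeq GRCm38.p6, and 3' UTRs from GENCODE M21. Named by rule were all members, partners past the size rule, the most abundant partner (Ube2l3), Irf9 and Trim30e-ps1. Other partners and neighbours were named after their values were seen. Some items are not reported here. Members, domain classes and lists were chosen with earlier results of these data known, and the Ifit, Gbp and Rnf families, neighbours and motifs after these values were seen. Alternatives were library totals, DESeq2 1.42.0 size factors, log2 of FPKM plus 1, count minimums, thresholds, a 99% interval, removal of the lowess trend with gene length (span 0.3) and summed copies.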

Additional observations from a re-analysis of the deposited data

How the results depend on the processing

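Calls rested on 1 library per genotype, and Trim6 and Trim30b on under 40 counts. No paired analysis was possible because each genotype has 1 library. Scaling by library totals or DESeq2 size factors, a 99% interval, no count minimum and removal of the length trend each left the same 4 members called higher and none lower. With log2 of FPKM plus 1, and with a minimum of 100 counts, 2 members were higher, both in the chromosome 7 group (2), where 1.89% and 1.77% of all genes were. On the first scale, which understates ratios of low genes, Trim30b went from a log2 ratio of 2.07 to 0.77 and Trim6 from 1.36 to 0.40. Summing copies gave 2 in the family and 2 in the group, against 2.41% of all genes. At 1.5-fold, 10 members, 9 of the group and 8 of the interferon list were higher, and 1 member, which is in that list (1), was lower; 2 partners were lower. At 4-fold 1 member was higher, which was Trim30b (1 in the group and 1 in the list), and 3 partners, against 0.659% of all genes. Every median of the family, both TRIM lists and the partners stayed within its order-statistic interval over members under the settings run. This is a loose check, since the settings reuse the same counts and members are not replicates. The median of the family went from 0.00 to 0.11 and that of the chromosome 7 group from 0.76 to 0.85. Among single members, ratios near 0 changed sign, Trim27 under 3 settings and Trim25, Trim33, Trim36 and Trim44 with the length trend removed; none of these was called.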
